A study of Mus musculus with 6 samples.

Results

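The R-spondin axis of WNT signalling was followed in digits in a dish (DID) cultures through 10 genes. These were the 4 R-spondin ligands *Rspo1*, *Rspo2*, *Rspo3* and *Rspo4*, the 3 LGR receptors *Lgr4*, *Lgr5* and *Lgr6*, and the 3 WNT target or effector genes *Axin2*, *Lef1* and *Tcf7*. They were taken by symbol from the 32286 genes of the count matrices, with earlier results of these data known, and all 10 were present. The cultures were made from distal forelimb mesenchyme of wild-type CD-1 mouse embryos at embryonic day 11.5, dissociated, plated at high density in medium with fetal bovine serum and harvested for single-cell RNA sequencing at Day 2, Day 7 or Day 10. Each day had 2 libraries, replicates A and B, from separate cultures. No group carried a mutation, a transgene or a drug treatment, so the days differed in culture time alone as far as the labels give it. The tissue of several embryos was pooled before plating, so a library stands for a pool of embryos and not for 1 animal.

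R-spondins are secreted proteins that bind LGR4, LGR5 or LGR6 together with the membrane ubiquitin ligases ZNRF3 and RNF43. Those ligases otherwise mark frizzled receptors for removal, so an R-spondin leaves more WNT receptor at the cell surface. Inside the cell, stabilised beta-catenin joins DNA-binding proteins such as LEF1 and TCF7, and it raises *Axin2*, a scaffold of the complex that degrades beta-catenin and thus a feedback gene. In the limb bud, *Rspo2* is needed for distal outgrowth and LEF1 and TCF7 transmit canonical WNT signals that restrain cartilage and favour bone.

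In the GRCm38 annotation the 10 genes lie apart, with *Lgr5* (chr10:115450311-115587780) and *Rspo3* (chr10:29452416-29535867) on chromosome 10, and *Axin2* (chr11:108920349-108950783) and *Tcf7* (chr11:52252371-52283014) on chromosome 11. *Rspo4* (chr2:151842927-151874668) and *Lgr4* (chr2:109917647-110014257) share chromosome 2. *Rspo1* (chr4:124986430-125009099), *Rspo2* (chr15:43020794-43170826), *Lgr6* (chr1:134983301-135105276) and *Lef1* (chr3:131110471-131224356) each lie alone. *Rspo3*, *Lef1* and *Tcf7* overlap an annotated noncoding or predicted gene on the same strand. *Rspo1*, *Rspo4*, *Lgr5* and *Axin2* overlap such a gene on the opposite strand only. Counts are uncertain to the extent that reads there were divided, on the opposite strand only if the counting ignored strand, which is not given. Promoter windows are shown for the target genes *Axin2* and *Lef1*, which both fell over whole cultures below. They were searched for letters that TCF and LEF proteins can bind, of which the *Axin2* window holds none and 1 of the 4 *Lef1* windows holds 1. RefSeq (GRCm38.p6) gave windows for 7 of the 10 genes, 11 windows in all, each the 250 bases before an annotated start site. *Rspo2*, *Rspo3* and *Lgr5* had no entry. The word AACAAAG was searched on both strands, together with the word ATCAAAG, the word TACAAAG and also the word TTCAAAG, and SOX proteins bind closely similar letters, so a match names no protein. At least 1 word was present in 4874 of all 32851 windows of this length (14.8%) and in 1 of the 11. Capitals mark that word. The *Axin2* window (chr11:108920099-108920348, plus strand) lies just before the first exon, and the *Lef1* window (chr3:131156044-131156293, plus strand) lies inside the gene before an internal start site and overlaps no annotated exon.
Axin2: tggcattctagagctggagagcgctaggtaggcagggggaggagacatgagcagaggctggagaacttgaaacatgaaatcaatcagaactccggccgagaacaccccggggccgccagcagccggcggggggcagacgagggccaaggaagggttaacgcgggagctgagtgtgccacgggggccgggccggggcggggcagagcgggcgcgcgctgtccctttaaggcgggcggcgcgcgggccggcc
Lef1: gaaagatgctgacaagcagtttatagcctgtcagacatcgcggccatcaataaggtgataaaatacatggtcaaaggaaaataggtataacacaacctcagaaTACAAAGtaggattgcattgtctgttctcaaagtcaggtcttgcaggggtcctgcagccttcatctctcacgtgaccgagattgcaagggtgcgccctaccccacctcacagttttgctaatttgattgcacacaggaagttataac
The *Lef1* word lies 147 bases before the internal start site. Counts of RNA 3′ ends do not show which start site was used, and no binding was measured.

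The filters left 72099 of 91215 barcodes, between 9448 and 16486 per library, with 178022112 to 260245417 unique molecular identifiers (UMIs, each standing for 1 captured RNA molecule) per library. Day 2 replicate B stood apart, with a median of 3871 UMIs per cell and 41.4% of its cells under 3000 UMIs, whereas the other medians reached up to 24197. The number of genes called among the 10 in whole cultures was the same with and without that library. Each pair of libraries shared 24 to 67 barcodes, at most 0.54% of either. Of the cell types other than mesenchyme, endothelial markers summed to 0.686 to 1.57 CPM (counts scaled to the size of the library) in a library, with 0 of 5 genes over 1 CPM in all libraries, and ectoderm markers to 5.26 to 10.6 CPM. Erythroid markers were at 62 and 145 CPM at Day 2 and at most 0.0671 CPM later. Myocyte markers went from 536 and 413 CPM at Day 2 to 3.24 and 8.48 CPM at Day 10, and immune markers lay between 11.4 and 122 CPM over the libraries. Chondrocyte markers were at 2035 and 2240 CPM at Day 2, 16591 and 15392 CPM at Day 7 and 10277 and 9446 CPM at Day 10, and bone matrix markers went from 34.4 and 38.1 CPM at Day 2 to 607 and 841 CPM at Day 10. Interdigital mesenchyme markers went from 169 and 161 CPM at Day 2 to 53.4 and 52.3 CPM at Day 10. Over the same days joint interzone markers went from 427 and 408 CPM to 106 and 111 CPM. Markers of dividing cells went from 1748 and 1897 CPM to 295 and 348 CPM. The part of this changing make-up in the whole-culture differences was not tested there. In summed libraries, fewer cells that express a gene and less RNA per cell cannot be told apart.

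Over whole cultures, *Rspo2* and *Rspo3* rose at each step, *Axin2* and *Lef1* fell at each step, *Tcf7* fell and then rose, and *Lgr4* stayed within narrow limits. Levels below are CPM with TMM factors, that is, a gene's UMIs scaled to the size of its library, and differences between days are log2 fold changes with the standard error from edgeR's quasi-likelihood test over all 6 libraries. A gene is said to be called, to have risen or to have fallen, where its Benjamini-Hochberg adjusted p over all 18987 tested genes was under 0.05. Of the 10 genes, 6 were called between Day 2 and Day 7, where 70.3% of all tested genes were called. Between Day 7 and Day 10 the count was 9 of 10 against a background of 52.2%, and between Day 2 and Day 10 it was 9 of 10 against 77.3%. With so many genes changing, these counts by themselves say little about the 10 genes, and the values of each are given by role.

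*Rspo3* had 12474 to 56681 UMIs in a library. Its level was 68.1 and 61.3 CPM in Day 2 replicates A and B, 165 and 155 CPM at Day 7, and 232 and 234 CPM at Day 10. No day overlapped another. The log2 fold change was 1.30 ± 0.06 from Day 2 to Day 7 (adjusted p = 3.22e-07) and 0.54 ± 0.06 from Day 7 to Day 10 (adjusted p = 2.35e-04), a 3.59-fold rise over the whole course.

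*Rspo2*, the R-spondin best known from limb outgrowth, was at 1.75 and 1.89 CPM at Day 2, 4.57 and 4.57 CPM at Day 7 and 20.4 and 15.6 CPM at Day 10. The days were again separate, and most of the rise came after Day 7. It was 1.33 ± 0.13 on the log2 scale up to Day 7 (adjusted p = 2.0e-05) and 1.98 ± 0.12 from Day 7 to Day 10 (adjusted p = 1.36e-05), together 9.89-fold.

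*Rspo1* had few UMIs until Day 10, with 28 and 26 in the Day 2 libraries, 40 and 35 in those of Day 7 and 111 and 371 in those of Day 10. Its levels were 0.121 and 0.128 CPM, then 0.205 and 0.188 CPM, then 0.453 and 1.67 CPM. No other gene of the 10 had replicates this far apart, in proportion, on that day. From Day 7 to Day 10 the log2 fold change was 2.42 ± 0.54 (adjusted p = 0.00593). Without Day 10 replicate B it was 1.21 (adjusted p = 0.0105), still past the threshold, and from Day 2 it was 3.08 with both libraries and 1.88 without replicate B. Between Day 2 and Day 7 *Rspo1* was not called (0.66 ± 0.65, adjusted p = 0.386).

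*Rspo4* moved the other way. It was at 0.779 and 0.747 CPM at Day 2, 0.460 and 0.344 CPM at Day 7 and 0.143 and 0.122 CPM at Day 10, the last from 35 and 27 UMIs. It fell by 0.92 ± 0.20 on the log2 scale up to Day 7 (adjusted p = 0.00292) and by 1.60 ± 0.23 after it (adjusted p = 6.88e-04). Thus 3 of the 4 ligands were higher and 1 was lower at Day 10 than at Day 2.

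**Figure D1:**
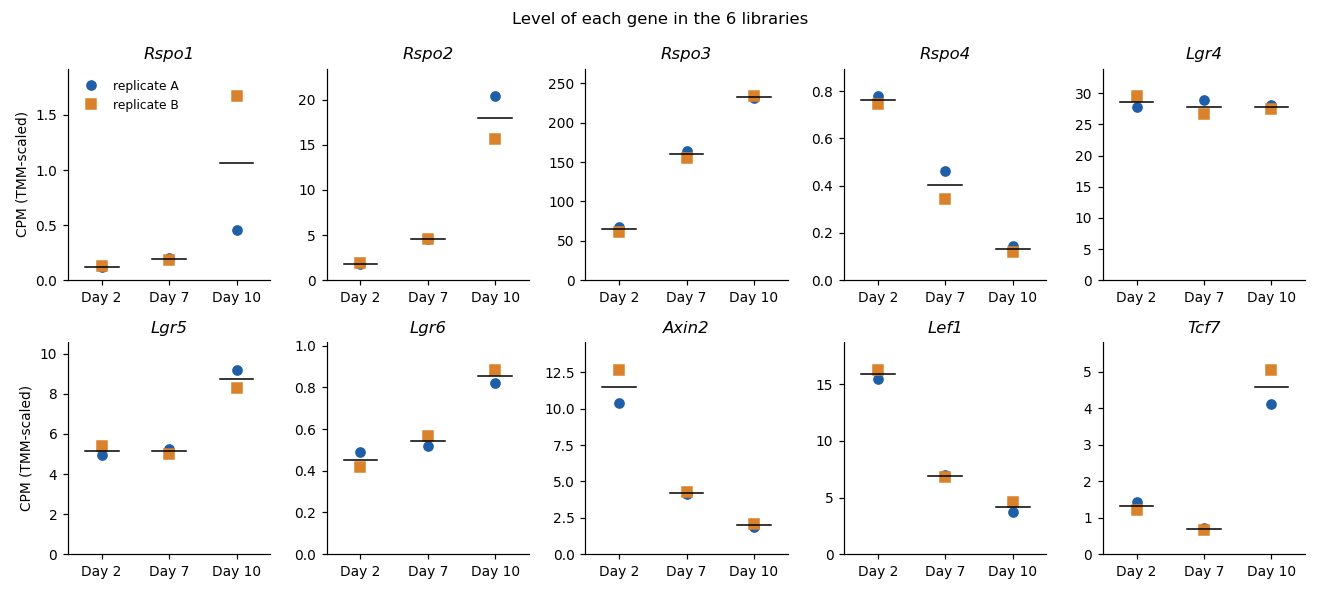
Level of each of the 10 genes in every library, in CPM with TMM factors (y axis, own scale per panel) by day of culture (x axis). Circles are replicate A, squares replicate B and a short horizontal line marks the mean of the 2 libraries of each day. *Rspo2* and *Rspo3* are highest at Day 10, *Axin2* and *Lef1* at Day 2, and the 2 replicates of *Rspo1* part at Day 10 (0.453 and 1.67 CPM).

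Among the receptors, *Lgr4* was steady, and *Lgr5* and *Lgr6* were higher at Day 10. *Lgr4* was at 27.8 and 29.5 CPM at Day 2, 29.0 and 26.7 CPM at Day 7 and 28.2 and 27.5 CPM at Day 10. The levels of the days overlapped. The difference was -0.04 on the log2 scale from Day 2 to Day 7 (95% interval -0.16 to 0.07, adjusted p = 0.539). From Day 7 to Day 10 the interval was -0.11 to 0.11. Larger changes of *Lgr4* lay outside these intervals, which are somewhat too narrow because they use the normal distribution.

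*Lgr5*, which marks progenitor cells in several epithelia, was at 4.94 and 5.38 CPM at Day 2 and at 5.27 and 5.0 CPM at Day 7, with overlapping replicates (log2 fold change -0.01 ± 0.08, 95% interval -0.16 to 0.15). At Day 10 it was at 9.19 and 8.31 CPM, above every earlier library. The rise from Day 7 was 0.77 ± 0.08 on the log2 scale (adjusted p = 1.24e-04), and Day 10 was 1.70-fold over Day 2.

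*Lgr6* was at 0.489 and 0.418 CPM at Day 2, 0.517 and 0.565 CPM at Day 7 and 0.821 and 0.882 CPM at Day 10. It was not called between Day 2 and Day 7 (0.25 ± 0.17, adjusted p = 0.219). The difference from Day 7 to Day 10 was 0.65 ± 0.16 (adjusted p = 0.0103), and it missed the threshold without Day 7 replicate A (adjusted p = 0.0723) or without Day 10 replicate B (adjusted p = 0.0528). From Day 2 to Day 10 it rose by 0.91 ± 0.17 (adjusted p = 9.22e-04).

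The target genes did not move as a group. *Axin2* was at 10.4 and 12.7 CPM at Day 2, 4.11 and 4.25 CPM at Day 7 and 1.86 and 2.11 CPM at Day 10. It fell by 1.46 ± 0.10 on the log2 scale (adjusted p = 2.79e-06) and then by 1.08 ± 0.11 (adjusted p = 1.34e-04), to 0.172 of its Day 2 level. *Lef1* was at 15.5 and 16.3 CPM, then 6.99 and 6.85 CPM, then 3.71 and 4.57 CPM. Its falls were 1.20 ± 0.09 (adjusted p = 3.86e-06) and 0.74 ± 0.09 (adjusted p = 3.32e-04), to 0.261 of the Day 2 level. In both genes no library of one day reached the range of another.

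*Tcf7* had 1.43 and 1.21 CPM at Day 2, 0.721 and 0.656 CPM at Day 7 and 4.13 and 5.05 CPM at Day 10. It was thus lowest at Day 7 and highest at Day 10, with no overlap. The fall to Day 7 was 0.94 ± 0.15 on the log2 scale (adjusted p = 4.68e-04) and the rise from Day 7 to Day 10 was 2.73 ± 0.14 (adjusted p = 8.10e-06). The Day 10 level was 3.47-fold over Day 2 (adjusted p = 2.73e-06), while the other 2 target genes were lower than at Day 2.

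The medians of the groups put these values beside the other genes. From Day 2 to Day 10 the median log2 fold change was 2.46 over the 4 ligands, 0.76 over the 3 receptors and -1.94 over the 3 targets, with 0.00 over all tested genes. From Day 2 to Day 7 the medians were 0.98, -0.01 and -1.20, with 0.01 over all genes, and from Day 7 to Day 10 they were 1.26, 0.65 and -0.74, with -0.02 over all genes.

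The partners of the pathway changed less evenly. *Znrf3*, the membrane ligase that R-spondins neutralise and itself a WNT-induced gene, had a mean of 7.01 CPM at Day 2, 5.09 CPM at Day 7 and 4.36 CPM at Day 10, and it fell at each step (-0.46 ± 0.07, then -0.22 ± 0.07). Its relative *Rnf43* had means of 0.187, 0.257 and 0.312 CPM and was called only between Day 2 and Day 10 (0.74 ± 0.22, adjusted p = 0.0121). Over all tested genes, 6772 rose and 6570 fell up to Day 7 (70.3% called), 5003 rose and 4910 fell from Day 7 to Day 10 (52.2%) and 7414 rose and 7256 fell over the whole course (77.3%), and the counts of the lists stand beside these. Of 12 frizzled and LRP receptor genes, 5 rose and 4 fell up to Day 7, 1 rose and 3 fell from Day 7 to Day 10, and 6 rose and 5 fell over the whole course, with a median of 0.11. *Fzd10* fell by 3.06 and *Fzd6* rose by 1.86 on the log2 scale up to Day 7, and over the whole course they fell by 3.77 and rose by 1.71. From Day 7 to Day 10 the largest called changes were in *Fzd5* (0.65) and *Fzd3* (-0.44). Of 15 intracellular components, 2 rose and 10 fell up to Day 7 and 5 rose and 4 fell after it. From Day 2 to Day 10, 3 rose and 7 fell with a median of -0.08, among them *Dvl1*, which relays the receptor signal (1.53), and the beta-catenin partner *Bcl9* (-1.52). These led each interval as well, with 0.80 and then 0.73 for *Dvl1* and -1.06 and then -0.46 for *Bcl9*. The 8 tested of 9 other WNT feedback and response genes gave 3 higher and 4 lower up to Day 7, 5 higher and 1 lower from Day 7 to Day 10, and 4 higher and 3 lower between Day 2 and Day 10. The secreted WNT inhibitor *Notum* rose by 2.07 and *Nkd2*, an inhibitor of dishevelled, fell by 1.55 over the whole course, and the median of the list was 0.13. Up to Day 7 the largest called changes were in *Nkd2* (-1.78) and *Tnfrsf19* (-1.30), and after it in *Notum* (1.34) and *Myc* (0.62). *Axin2* and *Lef1* thus fell over a course in which the other response genes moved in both directions.

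To find which cells held the genes, the cells of each day were clustered on other genes, with the 10 genes and the pathway lists left out. Clusters were named only where at least 3 markers of a type were enriched, and others are given by number and leading genes. Each cluster was set against the average of the remaining clusters of that day over both libraries (edgeR). Since the clusters were drawn from the same cells, these p-values describe the clusters and do not show that they are cell types. Over 11 clusters at Day 2, 26 of 99 tested pairs of one of the 10 genes and a cluster were called higher (26.3%), where 19.8% of all gene and cluster pairs were. At Day 7 the count was 32 of 120 over 15 clusters (26.7%, background 25.5%), and at Day 10 it was 53 of 171 over 19 clusters (31.0%, background 29.3%). At Days 2 and 7 the smallest clusters held no UMI of several genes, so the fold changes below come from a fit, chosen after the data were seen, of clusters with at least 50 cells in both libraries. It called 28 of 99 pairs higher at Day 2 (28.3%, background 21.0%) and 27 of 90 at Day 7 (30%, background 26.7%), and at Day 10 it held the same clusters. Lower calls numbered 8 in the first fit and 21 in the added one at Day 2, 6 and 20 at Day 7, and 37 at Day 10. The share of lower calls over all gene and cluster pairs was not taken, so these counts say nothing about the 10 genes. At Days 2 and 7 the first fit, with those empty clusters in the average, called only *Rspo3*, *Lgr4* and, at Day 2, *Lef1* lower. Where the first fit made another call or gave a log2 fold change over 1.5 times away, its value is given too. The share of higher pairs among the 10 genes was thus near the background at Days 7 and 10. Below, a cluster's share of a gene's UMIs is set beside its share of cells. Clusters differ in UMIs per cell, so these shares differ with depth as well as with level, while CPM is scaled for depth.

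At Day 2 the highest target gene levels were in cluster 9, called interdigital-mesenchyme-like from 5 of 6 markers (523 and 370 cells). *Lef1* was at 63.6 and 59.2 CPM there, 1.99 ± 0.08 on the log2 scale above the other clusters (adjusted p = 1.53e-14). *Axin2* was at 23.5 and 44.1 CPM (1.42 ± 0.13, adjusted p = 1.18e-08, 2.15 in the first fit) and *Tcf7* at 4.56 and 4.81 CPM (1.75 ± 0.21, 3.03 in the first fit), its highest level of the day. The same cluster had *Lgr4* at only 11.6 and 13.2 CPM (-1.57 ± 0.14), and *Rspo3* at 81.3 and 95.6 CPM. In the first fit *Rspo3* and *Lgr5* were called higher in this cluster. It held 17.5% and 14.2% of all *Lef1* UMIs in 5.54% and 2.24% of the cells of replicates A and B. In replicate B its cells were deeper than the library (median of 18269 UMIs against 3871), so the share of cells understates its share of all UMIs.

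The chondrocyte-like cluster 5 of Day 2 (8 of 10 markers, 1209 and 930 cells) combined receptors with *Lef1* and little ligand. *Lef1* was at 46.5 and 46.4 CPM (1.54 ± 0.07), *Lgr4* at 45.7 and 47.7 CPM (0.54 ± 0.09) and *Lgr5* at 10.2 and 10.5 CPM (0.88 ± 0.12, 2.35 in the first fit), all called higher. *Rspo3* was at 25.1 and 20.7 CPM (-1.57 ± 0.11). This cluster held 29.6% and 29.3% of all *Lef1* UMIs of its day. The joint-interzone-like cluster 4 (5 of 5 markers, 1342 and 850 cells), led by *Eomes*, *Pthlh* and *Gdf5*, had more *Lgr4* (53.1 and 62.5 CPM) but little *Lef1* (8.51 and 8.11 CPM, -1.34 ± 0.10), and its *Axin2* was at 16.3 and 20.1 CPM, called higher in the first fit (1.06, adjusted p = 0.0447) and not in the added one (0.30, adjusted p = 0.0568). Its *Rspo3* was at 86.2 and 76 CPM. *Lgr4* was also high in the shallow cluster 8, led by *Sned1* and *Mme* (82.3 and 58.7 CPM).

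*Rspo3* was highest in other cells of Day 2, although the first fit also called it higher in clusters 9 and 4. *Rspo3* reached 162 and 131 CPM in cluster 6, led by *Ankrd1* and *Cryab* (1.71 ± 0.08, adjusted p = 5.97e-14), and 110 and 108 CPM in the contractile-mesenchyme-like cluster 7 (1.07 ± 0.08). *Lef1* was below the other clusters in both, at 8.06 and 10.2 CPM and at 11.5 and 10.9 CPM. The lowest *Rspo3* was in the myocyte-like cluster 11, at 13.7 and 10.5 CPM (-2.22 ± 0.14). That cluster had *Lgr5* at 7.90 and 12.6 CPM, called higher (1.16 ± 0.17, 2.63 in the first fit). *Rspo2* was called higher in clusters 8, 1, 3 and 7 in the first fit. Cluster 1, led by *Meis2* and *Lum*, held 34.6% and 33.6% of the *Rspo2* UMIs in 21.7% and 9.47% of the cells. In replicate B its cells too were deeper than the library (median of 20865 UMIs against 3871). *Rspo1*, *Rspo4* and *Lgr6* stayed at or under 2.42 CPM in every cluster of the day for which levels are given.

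At Day 7 *Axin2* and *Lgr5* were both high in the joint-interzone-like cluster 4 (4 of 5 markers, 1069 and 1461 cells). *Axin2* was at 13.4 and 13 CPM (1.66 ± 0.13, adjusted p = 1.76e-12, 2.69 in the first fit), its highest level of the day, and *Lgr5* at 14 and 13.6 CPM (1.57 ± 0.13, adjusted p = 6.09e-12, 2.58 in the first fit). In 7.93% and 11.8% of the cells the cluster held 23.9% and 27.7% of the *Axin2* UMIs. *Lef1* did not follow: it was at 3.83 and 3.62 CPM there, below the other clusters (-1.38 ± 0.21) in the added fit but not called in the first (-0.65), and *Rspo3* was at 84 and 71.6 CPM (-0.73 ± 0.09). *Lef1* was highest in cluster 11, led by *Rad54b*, *Brca1* and *Neil3* (16.3 and 25.1 CPM, 1.29 ± 0.28, 2.06 in the first fit), and in the shallow cluster 5 (15.4 and 20.3 CPM, 1.30 ± 0.18, 2.17 in the first fit), with ranges that overlap. It was also called higher in the tenocyte-like cluster 7 (13.7 and 14.2 CPM, 0.85 ± 0.14, 1.54 in the first fit). Cluster 11 was small (178 and 155 cells) and held 22 and 27 *Lef1* UMIs.

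The chondrocyte-like cells of Day 7 had almost no *Lgr5* or *Rspo2*. In cluster 1 (9 of 10 markers, 2395 and 2302 cells) *Lgr5* was at 0.693 and 0.833 CPM (-2.25 ± 0.22) and *Rspo2* at 0.416 and 0.342 CPM (-2.53 ± 0.39), and neither was called lower in the first fit (-1.32 and -2.18). *Lgr5* was instead at 13.1 and 11.3 CPM in the tenocyte-like cluster (1.57 ± 0.14, 2.55 in the first fit) and at 14.1 and 14.9 CPM in cluster 11 (1.69 ± 0.30, 2.76 in the first fit). *Rspo2* was at 8.80 and 8.74 CPM in the contractile-mesenchyme-like cluster 2 (1.91 ± 0.14), 10.4 and 7.43 CPM in cluster 11 (1.76 ± 0.38) and 7.35 and 8.03 CPM in the tenocyte-like cluster (1.64 ± 0.18). The levels in cluster 11 came from few UMIs, 19 and 16 of *Lgr5* and 14 and 8 of *Rspo2*. Contractile cluster 2 also had the highest *Rspo3*, 240 and 219 CPM (1.21 ± 0.08), so it held 46.5% and 47.2% of the *Rspo2* UMIs and 35.2% and 35% of those of *Rspo3*. *Lgr4* was highest in chondrocyte-like cluster 8, at 67.1 and 60.1 CPM (1.27 ± 0.11). The larger chondrocyte-like cluster 1 was not called for *Lgr4* in the first fit. Cluster 8 was shallower than cluster 1 (medians of 7375.5 and 6757 UMIs against 27737 and 26939.5). Clusters 5 and 3, the next in *Lgr4* level, were shallower still.

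**Figure D2:**
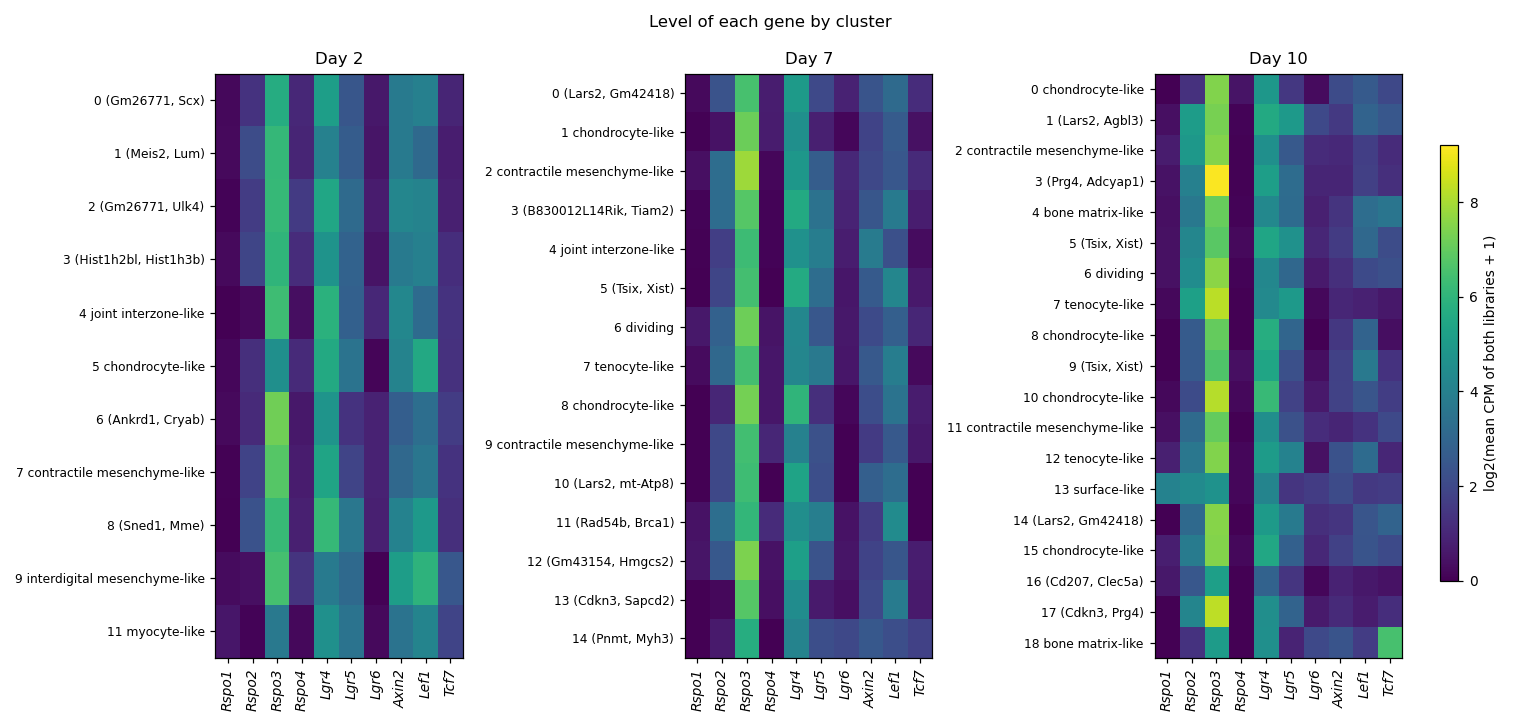
Level of each gene (columns) in every cluster with at least 50 cells in both libraries (rows) at Day 2, Day 7 and Day 10, as colour on a log2 scale of the mean CPM of both libraries plus 1. *Rspo3* is bright in nearly all rows and brightest in Day 10 cluster 3, and *Tcf7* stands out in 1 row, the bone-matrix-like cluster 18 of Day 10. *Axin2* is brightest in cluster 9 of Day 2 and, within Day 7, in cluster 4.

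At Day 10 *Rspo3* and *Rspo2* had different leading clusters, although each was called higher in 8 clusters and 5 of these were the same. *Rspo3* was at 549 and 569 CPM in cluster 3, led by *Prg4* and *Adcyap1* (1062 and 940 cells), which was 2.10 ± 0.10 on the log2 scale above the other clusters (adjusted p = 5.90e-17). These cells were 10.2% and 9.45% of the libraries and held 30.7% and 29.9% of the *Rspo3* UMIs. The next levels were 298 and 326 CPM in cluster 17, led by *Cdkn3* and *Prg4*, 266 and 340 CPM in the tenocyte-like cluster 7 and 283 and 287 CPM in the chondrocyte-like cluster 10, all within the range of cluster 7. The lowest levels were 23.7 and 25.3 CPM in the surface-like cluster 13 (-2.61 ± 0.18), 37.1 and 26.5 CPM in the bone-matrix-like cluster 18 (-2.03 ± 0.20) and 37.5 and 32.9 CPM in cluster 16, led by the immune genes *Cd207*, *Clec5a* and *Mpeg1* (-2.00 ± 0.19).

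*Rspo2* was highest in the tenocyte-like cluster 7 (41.1 and 32.7 CPM, 2.02 ± 0.12, adjusted p = 1.24e-14), in the contractile-mesenchyme-like cluster 2 (32.8 and 24.4 CPM, 1.67 ± 0.11, with *Rspo3* at 175 and 183 CPM, also called higher) and in the shallow cluster 1, led by *Lars2* and *Agbl3* (37.5 and 28.5 CPM). The ranges of these 3 clusters overlap. *Rspo2* was called higher in cluster 3 as well, where *Rspo3* peaked (18.0 and 12.3 CPM, 0.64 ± 0.13). Cluster 7 held 17.6% and 15.5% of the *Rspo2* UMIs and cluster 2 held 33.9% and 30.7%. The other tenocyte-like cluster, 12, had 14 and 8.97 CPM and was not called. In chondrocyte-like cluster 0 the level was 1.66 and 1.36 CPM (-2.65 ± 0.23).

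*Rspo1* had its highest level in the surface-like cluster 13, led by *Msln*, *Rspo1* itself and *Gsg1* (3 of 3 markers). These markers are *Wnt10a*, *Cd34* and *Stmn2*, a list chosen with earlier results of these data known, so the name does not show an identity. The paper used *Wnt10a* and *Stmn2* as osteoblast markers and *Cd34* as an endothelial progenitor marker. In cluster 13 *Rspo1* was at 6.62 and 25.2 CPM, and this cluster held 34.2% of the *Rspo1* UMIs of replicate A and 79.2% of those of replicate B. The cluster had 142 cells in replicate A and 321 in replicate B, 1.37% and 3.23% of the libraries. The gap between the Day 10 libraries in *Rspo1* thus went with more cells of this cluster and with a higher level within it. A low level in contractile cluster 2 (0.738 and 0.483 CPM) was also called higher, and that cluster held as many of the *Rspo1* UMIs of replicate A (34.2%) as the surface-like one.

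*Lgr5* and *Rspo2* were both high in clusters 7 and 1 of Day 10. *Lgr5* was at 28.4 and 31.2 CPM in tenocyte-like cluster 7 (2.46 ± 0.10, adjusted p = 8.83e-18), at 34 and 27.6 CPM in shallow cluster 1 (2.13 ± 0.13) and at 16.8 and 15.2 CPM in tenocyte-like cluster 12 (1.37 ± 0.18). Cluster 7 held 26.9% and 27.7% of the *Lgr5* UMIs in 6.68% and 5.37% of the cells. In contractile cluster 2, which held the most *Rspo2* UMIs, *Lgr5* was not called (5.38 and 4.42 CPM), with 12.3% and 10.4% of its UMIs in 11.4% and 10.0% of the cells. The cells of cluster 2 were deep (medians of 41711 and 41415 UMIs, against 24197 and 22128 in the libraries). Its share of cells thus understates its share of all UMIs. *Lgr5* was low in chondrocyte-like cluster 0 (2.03 and 1.60 CPM, -1.59 ± 0.16), in surface-like cells (1.92 and 1.37 CPM) and in bone-matrix-like cluster 18 (1.26 and 0.553 CPM). *Lgr4* was arranged otherwise. It was at 77.2 and 68.1 CPM in chondrocyte-like cluster 10 (1.47 ± 0.09) and at 41 and 48.5 CPM in chondrocyte-like cluster 15, but at 19.3 and 19.3 CPM in tenocyte-like cluster 7 (-0.54 ± 0.09) and 4.81 and 8.04 CPM in cluster 16. *Lgr6* had its highest levels, 2.44 and 3.71 CPM and 2.52 and 3.59 CPM, in clusters 1 and 18.

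*Tcf7* at Day 10 was highest in bone-matrix-like cells, while most of its UMIs lay outside the cluster with the peak. In the bone-matrix-like cluster 18 (5 of 6 markers, 85 and 102 cells), led by *Hs3st6*, *Ifitm5* and *Ibsp*, *Tcf7* was at 82.1 and 100 CPM, 5.80 ± 0.14 on the log2 scale above the other clusters (adjusted p = 6.33e-25). These cells were 0.818% and 1.03% of the libraries and held 25.8% and 32.3% of the *Tcf7* UMIs. The larger bone-matrix-like cluster 4 (3 of 6 markers, 978 and 968 cells), which the tendon marker *Tnmd* led together with *Nrgn* and *Steap4*, had *Tcf7* at 11.3 and 10.4 CPM (2.30 ± 0.14, adjusted p = 1.50e-13) and held 31.1% and 25.2% of its UMIs. Chondrocyte-like cluster 0 held 13.4% and 12.5% and the dividing cluster 6 held 9.40% and 9.55%. In tenocyte-like cluster 7 *Tcf7* was at 0.469 and 0.549 CPM (-2.30 ± 0.42).

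*Lef1* and *Axin2* of Day 10 were spread more evenly. *Lef1* was called higher in 7 clusters, among them bone-matrix-like cluster 4 (8.37 and 9.14 CPM, 1.53 ± 0.16, adjusted p = 4.52e-09), tenocyte-like cluster 12 (8.70 and 7.85 CPM, 1.34 ± 0.25), the shallow cluster 9 (10.2 and 14.1 CPM) and the chondrocyte-like clusters 8 (4.86 and 8.56 CPM) and 0 (4.58 and 5.49 CPM), the last with 26.1% and 22.7% of its UMIs. Unnamed clusters 5 and 1 were the others. It was at 0.609 and 0.975 CPM in tenocyte-like cluster 7 (-2.11 ± 0.30) and at 2.20 and 1.94 CPM in cluster 18, where it was not called. *Axin2* was at or below 4.70 CPM in every cluster and library of this day for which levels are given. It was called higher in cluster 18 (3.77 and 4.70 CPM, 1.53 ± 0.33), tenocyte-like cluster 12 (3.82 and 4.26 CPM, 1.08 ± 0.29), chondrocyte-like cluster 0 (3.15 and 3.53 CPM, 1.13 ± 0.17) and surface-like cluster 13 (2.27 and 4.28 CPM, 1.02 ± 0.25), and lower in tenocyte-like cluster 7 (0.797 and 1.16 CPM, -0.94 ± 0.28), contractile cluster 2 (1.13 and 1.08 CPM, -0.69 ± 0.22) and cluster 3 (0.884 and 0.989 CPM, adjusted p = 0.00129), the one with the most *Rspo3*. The pair of tenocyte-like clusters thus lay on opposite sides of the average of the day in *Lef1* and *Axin2*.

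A class of cells that was named on several days allows a comparison in which the make-up of the culture moves less. The chondrocyte-like class was cluster 5 at Day 2 (1209 and 930 cells), clusters 1, 8 and 17 at Day 7 (3003 and 2794 cells) and clusters 0, 8, 10 and 15 at Day 10 (2350 and 2108 cells). Some shallow clusters with chondrocyte markers were kept out, because few or none of these were among their leading genes, at Day 2 cluster 8 (4.87% and 5.05% of the libraries) and at Day 10 clusters 9 (3.03% and 4.58%) and 14 (2.31% and 2.02%). Cluster 8 of Day 10 and cluster 17 of Day 7 are shallow too but met the rule, and stayed in. In this class 9 of the 10 genes could be tested, all but *Rspo1*. Between Day 2 and Day 7, 7 of the 9 were called, with 71.4% of all 16036 tested genes. Between Day 7 and Day 10 it was 8 of 9 with 43.3%, and between Day 2 and Day 10 it was 8 of 9 with 74.9%.

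Between Day 2 and Day 7 *Rspo3* rose in chondrocyte-like cells, while *Lgr5*, the target genes and, to a lesser extent, *Lgr4* fell. *Rspo3* went from 20.4 and 16.7 CPM to 163 and 164 CPM, a log2 rise of 3.14 ± 0.08 (adjusted p = 1.00e-14). *Lgr5* fell from 8.32 and 8.48 CPM to 0.849 and 1 CPM (-3.18 ± 0.14, adjusted p = 1.01e-11), while its 95% interval in whole cultures over the same days was -0.16 to 0.15. *Lgr4* fell from 37.2 and 38.6 CPM to 30 and 29 CPM (-0.36 ± 0.06, adjusted p = 5.64e-05).

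All 3 target genes fell in the class over the same interval. *Lef1* went from 37.8 and 37.5 CPM to 6.53 and 6.29 CPM (-2.55 ± 0.08, adjusted p = 1.02e-13), *Axin2* from 12.5 and 14.1 CPM to 3.05 and 3.12 CPM (-2.11 ± 0.11, adjusted p = 4.42e-11) and *Tcf7* from 1.36 and 1.05 CPM to 0.358 and 0.476 CPM (-1.54 ± 0.28, adjusted p = 1.30e-04). *Rspo2* was at 1.61 and 0.581 CPM at Day 2 and at 0.492 and 0.460 CPM at Day 7 (-1.22 ± 0.37, adjusted p = 0.00772). That call rested on Day 2 replicate A, since without it the value was -0.28 (adjusted p = 0.576).

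From Day 7 to Day 10 *Axin2* did not pass the threshold within the chondrocyte-like class, while *Tcf7* rose. *Axin2* was at 3.21 and 3.48 CPM at Day 10 (0.11 ± 0.12, adjusted p = 0.468, 95% interval -0.12 to 0.35). *Tcf7* rose to 2.86 and 3.22 CPM (2.86 ± 0.21, adjusted p = 3.88e-08), *Lgr5* to 2.71 and 2.63 CPM (1.53 ± 0.16, adjusted p = 1.40e-06), *Rspo2* to 3.55 and 2.85 CPM (2.75 ± 0.27, adjusted p = 9.71e-07) and *Lgr4* to 35.3 and 35.9 CPM (0.27 ± 0.06, adjusted p = 0.00132). These 4 calls were kept whichever library was left out.

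The other 4 calls of that interval were less firm. *Lef1* was at 4.86 and 5.73 CPM at Day 10 (-0.28 ± 0.09, adjusted p = 0.0222) and *Rspo3* at 187 and 195 CPM (0.22 ± 0.06, adjusted p = 0.0112). *Rspo4* went from 0.790 and 0.640 CPM to 0.387 and 0.356 CPM (-0.94 ± 0.30, adjusted p = 0.0174), and *Lgr6* from 7 and 9 UMIs to 25 and 11 (adjusted p = 0.0285). *Lef1*, *Rspo4* and *Lgr6* lost their call with DESeq2 (adjusted p = 0.0881, 0.146 and 0.305). Without Day 7 replicate A all 4 were lost, which left 4 genes called in place of 8, and without Day 7 replicate B or Day 10 replicate A 5 were called.

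From Day 2 to Day 10 *Lef1* (-2.84 ± 0.08), *Axin2* (-1.99 ± 0.11) and *Lgr5* (-1.65 ± 0.13) were lower in the class and *Rspo3* (3.36 ± 0.08), *Rspo2* (1.53 ± 0.28) and *Tcf7* (1.33 ± 0.21) higher. *Rspo4* (-1.31 ± 0.33) lost its call without Day 2 replicate A (adjusted p = 0.0555). *Lgr6* had 1 and 3 UMIs at Day 2, and its call (adjusted p = 0.0113) was lost without that library or Day 10 replicate A (adjusted p = 0.135 and 0.123) and with DESeq2 (adjusted p = 0.102). *Lgr4* was the gene not called (-0.09, adjusted p = 0.184, 95% interval -0.21 to 0.03).

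The tenocyte-like class, the presumptive tendon cells by 3 or 4 of 6 markers, was named at Day 7 (cluster 7, 593 and 694 cells) and Day 10 (clusters 7 and 12, 923 and 769 cells). All 6 genes that could be tested were called, with 54.2% of all 13531 genes. *Rspo2* rose from 7.39 and 8.09 CPM to 36.2 and 27.4 CPM (2.04 ± 0.14, adjusted p = 2.36e-09). Set against the other clusters of Day 10, *Rspo2* was called higher in cluster 7 and was not called in cluster 12. *Rspo3* rose from 84.2 and 88.1 CPM to 243 and 309 CPM (1.68 ± 0.08, adjusted p = 3.66e-11). *Lgr5* rose from 13.2 and 11.4 CPM to 26.2 and 27.6 CPM (1.14 ± 0.10, adjusted p = 6.14e-08). At Day 10 both *Rspo3* and *Lgr5* were at a higher level in cluster 7 than in cluster 12. Neither cluster alone was tested against Day 7, so the part of the make-up of the class in these rises was not tested. *Lgr4* went from 16.8 and 18.9 CPM to 21.8 and 21.6 CPM (0.28 ± 0.10, adjusted p = 0.0206), a call that was lost without Day 7 replicate A (adjusted p = 0.178) and with DESeq2 (adjusted p = 0.163).

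*Lef1* and *Axin2* fell in the tenocyte-like class. The class leaves out bone-matrix-like cluster 4 of Day 10 (978 and 968 cells). That cluster had the tendon marker *Tnmd* among its leading genes, and *Lef1* was called higher in it. *Lef1* went from 13.8 and 14.3 CPM to 2.07 and 2.43 CPM (-2.65 ± 0.16, adjusted p = 3.02e-10) and *Axin2* from 4.14 and 5.93 CPM to 1.34 and 1.81 CPM (-1.70 ± 0.25, adjusted p = 1.89e-05). The Day 10 sums hold both clusters, of which cluster 7 was the lower in these genes, and cluster 12 alone, at 3.82 and 4.26 CPM of *Axin2* and 8.70 and 7.85 CPM of *Lef1*, was not tested against Day 7. *Tcf7* had 2 UMIs in each Day 7 library and 16 and 12 at Day 10 and was not tested, as were *Rspo1*, *Rspo4* and *Lgr6*.

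The difference between the classes was tested itself, as the change from Day 7 to Day 10 in chondrocyte-like cells minus that in tenocyte-like cells. Both classes came from the same libraries, and the fit treated their sums as independent. The difference was called for 5 of the 10 genes, with 32.0% of all 15461 tested genes. *Lef1* (2.37 ± 0.18, adjusted p = 1.77e-07) fell further in tenocyte-like cells, *Axin2* (1.82 ± 0.26, adjusted p = 9.04e-05) fell there and was not called in chondrocyte-like cells, and *Rspo3* (-1.46 ± 0.11, adjusted p = 2.02e-07) rose further there. The differences for *Rspo4* (3.29 ± 1.11, adjusted p = 0.0332) and *Lgr6* (2.60 ± 0.81, adjusted p = 0.0232) were less firm, since both were lost without either Day 7 library, without Day 10 replicate A and with DESeq2. *Rspo4* had 7, 4, 0 and 1 UMIs and *Lgr6* 5, 6, 6 and 3 in the tenocyte-like sums. For *Rspo2* the difference was 0.70 ± 0.30 (adjusted p = 0.0861), and it was called with a replicate block (0.72, adjusted p = 0.0283). It was also called with a library block, which allows for the shared libraries (0.69, adjusted p = 0.0139). For *Lgr4* it was -0.01 ± 0.10, with a 95% interval of -0.20 to 0.18.

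**Figure D3:**
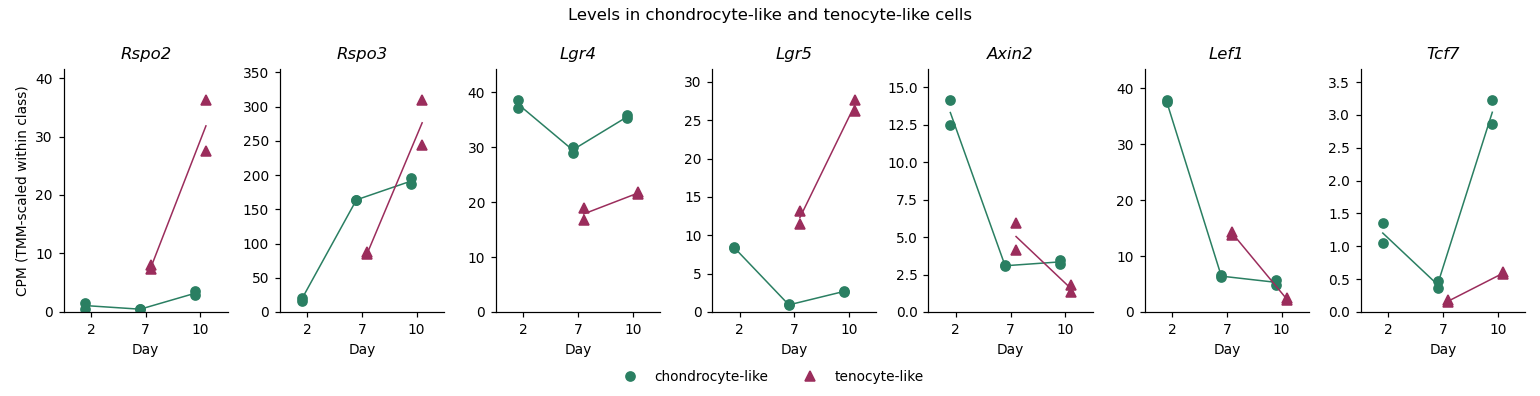
Level of 7 of the genes within the chondrocyte-like class (circles) and the tenocyte-like class (triangles), in CPM with TMM factors (y axis, own scale per panel) by day (x axis), each point a library and each line joining the means. In tenocyte-like cells *Lef1* falls from 13.8 and 14.3 CPM at Day 7 to 2.07 and 2.43 CPM at Day 10, whereas chondrocyte-like cells were at 6.53 and 6.29 CPM by Day 7. No tenocyte-like class was named at Day 2.

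Which cells hold ligand, receptor and target together was described after each cell was thinned to 10000 UMIs, with 5438 to 7780 cells per library deep enough. Shares at this depth, also those within clusters, are of the deep enough cells alone. Intervals on such shares cover counting error only, and a cell without a UMI may still express the gene. At this depth *Rspo3* had a UMI in 31.2% and 30.5% of the Day 2 cells, in 55.7% and 53.6% of the Day 7 cells and in 62.1% and 61.4% of the Day 10 cells. As counted, without thinning, the shares were 39.6% and 24.2%, 44.6% and 44.2%, and 65.7% and 60.8%, with the gap at Day 2 going with the shallow cells of replicate B. At the lower depth of 3000 UMIs they were 14.5% and 15%, 27.2% and 23.9%, and 35.3% and 34.4%. In cluster 16 of Day 10, cells led by immune genes that should lack *Rspo3*, 15.7% and 14.8% had a UMI at 10000 UMIs. This share is taken as the background of this gene. Whether it came from free RNA or from doublets, which were not removed, was not tested. The surface-like cluster 13 (14.1% and 11.6%) and the bone-matrix-like cluster 18 (10.8% and 14.7%) did not exceed that background.

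Any ligand was found in 33.0% and 32.2% of cells at Day 2 and in 67.3% and 65.6% at Day 10. Any receptor was found in 27.4% and 28.5%, then 23.9% and 23.8%, then 25.9% and 26.7%, a narrow range over the days. Any target went from 22.8% and 25.3% at Day 2 to 9.85% and 9.09%, and then to 7.58% and 8.82%. Cells with both ligand and receptor were 9.46% and 9.45% at Day 2, then 14.7% and 14.2%, then 19.1% and 19.6%, over days on which the ligand share itself became larger. No background or chance share was set beside the combinations, so they do not show that ligand and receptor met more often than their own shares give. Cells with receptor or target and no ligand went the other way, from 29.5% and 31.9% to 13% and 12.9% and then 9.86% and 10.3%. All 3 roles met in 1.99% and 2.24% of cells at Day 2 and in 1.08% and 1.55% at Day 10.

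Background shares by cluster are at hand for Day 10 only. Cluster 16 of Day 10 had *Lgr4* in 3.48% and 9.26% of cells, *Axin2* in 0.870% and 1.85% and *Lef1* in 0 of 115 and 0 of 162 cells, with exact upper limits of 3.16% and 2.25%. At Day 2 the immune-like cells were 19 and 8, too few for a background, and none was set for Day 7. The shares of these days thus do not tell expression from free RNA or doublets. In chondrocyte-like cluster 5, 48.9% and 53.5% of cells had receptor or target without a ligand UMI, and *Lgr4* alone was in 33.5% and 35% and *Lef1* in 27.7% and 27.2%. In interdigital-mesenchyme-like cluster 9 a target was in 47.8% and 55.8% of cells and a receptor in 13% and 18.8%. In cluster 6 a ligand was in 51.2% and 59.8% and a target in 14.5% and 12.7%. There 332 of 465 cells of replicate A and 204 of 1643 of replicate B were deep enough. At Day 7 the joint-interzone-like cluster 4 had *Axin2* in 12.5% and 11.3% of cells, against 4.04% and 3.80% of the libraries. Chondrocyte-like cluster 8 of Day 7 had *Lgr4* in 45.9% and 48.9% of the 135 and 94 cells deep enough, out of 580 and 481. The larger chondrocyte-like cluster 1 of that day had it in 20.1% and 21.6% of cells, with 20.6% and 20.1% over the libraries.

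At Day 10 cluster 3 had *Rspo3* in 91.6% and 94% of cells, and only 5.57% and 3.54% of its cells lacked all 10 genes. Ligand and receptor together were found in 33.8% and 34.4% of the cells of chondrocyte-like cluster 10, in 25.4% and 31.3% of those of cluster 3 and in 27.1% and 27.7% of those of tenocyte-like cluster 7, against 5.63% and 8.49% of surface-like cells. The latter had *Rspo1* in 6.34% and 17% and none of the 10 genes in 49.3% and 53.1%. *Tcf7* was in 54.2% and 59.8% of the cells of bone-matrix-like cluster 18, in 7.74% and 6.78% of those of cluster 4 and in 0% and 0.617% of cluster 16. Receptor or target without a ligand UMI was found in 61.4% and 59.8% of the cells of cluster 18. Tenocyte-like cluster 7 had *Rspo2* in 29.2% and 24.1% and *Lgr5* in 17.8% and 18.9%, while cluster 16 had 1.74% and 3.70% for *Rspo2* and 1.74% and 1.23% for *Lgr5*.

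**Figure D4:**
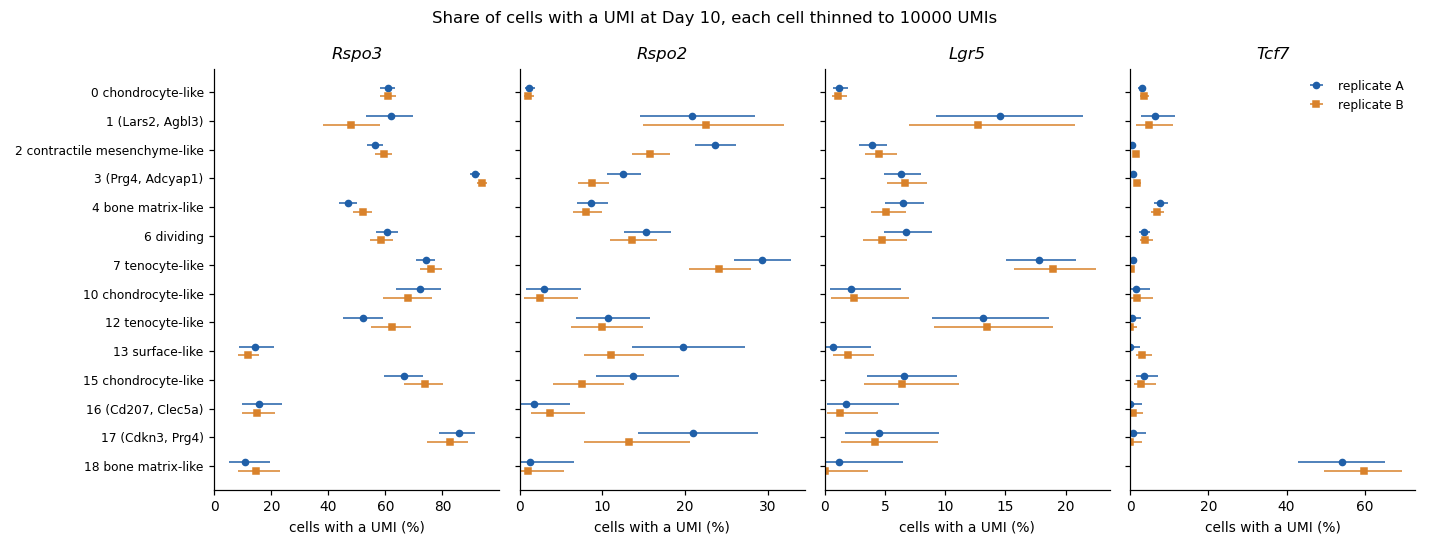
Share of cells (%, x axis) with a UMI of *Rspo3*, *Rspo2*, *Lgr5* or *Tcf7* in clusters of Day 10 (y axis) after thinning every cell to 10000 UMIs, for replicates A and B. Only cells with at least 10000 UMIs enter, and bars are exact binomial 95% intervals for counting error only. *Rspo3* reaches 91.6% and 94% of cells in cluster 3, and *Tcf7* is highest in the bone-matrix-like cluster 18 (54.2% and 59.8%).

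Over the whole of Day 10 *Lgr5* was seen more often in cells with *Rspo2* than in the others, in both replicates. It had a UMI in 9.68% and 11.8% of cells with *Rspo2*, against 5.56% and 4.96% of the other cells. Within tenocyte-like cluster 7 the shares were 15.8% against 18.6% in replicate A and 22.8% against 17.7% in replicate B, so the replicates differed in direction. *Lgr4* was in 22.6% and 24.8% of the Day 10 cells with *Rspo3* and in 16.5% and 16.7% of the others. At Day 2 *Lef1* was in 17.7% and 19.0% of cells with *Axin2* and in 12.3% and 12.7% of the others. These shares are descriptions of cells that share a library, and no test was made on them.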

How the data were processed

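Single-cell RNA was captured with 10x 3′ chemistry in 6 libraries, and the authors deposited UMI counts per gene and barcode, aligned and counted with Cell Ranger 6.1.2 on GRCm38 according to the submitters' processing notes. Whether the counting used strand is not given in the sources used here. Cells were kept by the study's limits for each library (at least 800 or 1000 UMIs, 200 to 7500 genes, at most 25, 30 or 40% mitochondrial and 35 or 40% ribosomal UMIs). No doublet removal is stated and none was made. Kept UMIs were summed per library, or per library and cluster or class, and tested with edgeR 4.0.16 (TMM, filterByExpr, quasi-likelihood, R 4.3.3), with Benjamini-Hochberg adjustment over all genes tested and a threshold of 0.05. All 6 libraries shared an estimate of the spread, with 2 libraries per day. The scripts were tested on simulated counts first.

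Clusters were drawn per day with Seurat 5.3.0 and sctransform 0.4.2 (35 dimensions, 3000 features, resolution 0.5 at Days 2 and 7 and 0.7 at Day 10). A name needed 3 markers enriched by over 0.25 on the log2 scale with a UMI in at least 25% of cells, and the cut-offs of this rule were set after leading genes had been seen, and clusters far shallower than their library were held to a stricter rule. A fit of clusters of at least 50 cells was added after seeing the data. Cells were thinned to 3000 UMIs and, chosen after seeing the data, to 10000 UMIs. The 10 genes and all lists were chosen with earlier results of these data known. All 10 genes are named. Of the pathway lists, genes are named if they had 1 of the 2 largest called changes of a comparison or if the list had at most 3 genes. Alternatives were DESeq2 1.42.0 and its size factors, other filters and cluster resolutions, a replicate block and leaving out each library.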

Additional observations from a re-analysis of the deposited data

Results flagged for a closer look

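The change from Day 7 to Day 10 differed between chondrocyte-like and tenocyte-like cells for 5 of the 10 genes, by a test of the difference itself (edgeR, chondrocyte-like minus tenocyte-like, n = 2 libraries per day and class), where 32.0% of all 15461 tested genes were called. Both classes came from the same libraries, and the fit treated their sums as independent. The difference on the log2 scale was -1.46 ± 0.11 for *Rspo3* (adjusted p = 2.02e-07), so its rise was larger in tenocyte-like cells. It was 1.82 ± 0.26 for *Axin2* (adjusted p = 9.04e-05) and 2.37 ± 0.18 for *Lef1* (adjusted p = 1.77e-07). *Lef1* fell further in tenocyte-like cells, and *Axin2* fell there and was not called in chondrocyte-like cells. Within Day 10 both genes were called lower in tenocyte-like cluster 7 and higher in tenocyte-like cluster 12. Cluster 12 alone was not tested against Day 7. For *Rspo4* it was 3.29 ± 1.11 (adjusted p = 0.0332) and for *Lgr6* 2.60 ± 0.81 (adjusted p = 0.0232). *Rspo4* had 7 and 4 UMIs in the tenocyte-like sums of Day 7 and 0 and 1 in those of Day 10, and *Lgr6* had 5 and 6 and then 6 and 3. Both were lost with DESeq2 and without either Day 7 library, which left 3 genes called.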

How the results depend on the processing

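No result changed direction under the alternatives whose values were kept. For the tests between days, 43 counts of called genes stayed within 1.5 times of their main value when the settings were changed and 2 did not. With DESeq2, 5 genes were called in chondrocyte-like cells from Day 7 to Day 10 (8 by edgeR) and 3 for the difference between classes (5 by edgeR), where *Rspo4* (adjusted p = 0.138) and *Lgr6* (adjusted p = 0.134) were lost. Leaving out 1 library at a time gave 4 to 8 genes called in chondrocyte-like cells from Day 7 to Day 10 (4 without Day 7 replicate A, 5 without Day 7 replicate B or Day 10 replicate A), 6 to 7 from Day 2 to Day 7 and 6 to 8 from Day 2 to Day 10. It gave 3 to 6 for the difference between classes (3 without either Day 7 library), 6 to 7, 8 to 9 and 9 in whole cultures, and 5 to 6 in tenocyte-like cells.

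Among single genes, *Rspo1* from Day 2 to Day 7 was called when only these days entered the fit (0.67, adjusted p = 0.0489) or when a Day 10 library was left out. With the shallow clusters added, *Lef1* in chondrocyte-like cells from Day 7 to Day 10 was lost (adjusted p = 0.0624). In the difference between classes *Rspo2* was called with a library block (0.69, adjusted p = 0.0139) or without either Day 10 library (adjusted p = 0.0346 and 0.0497). The cause was not tested. Other cluster resolutions, merged clusters and small clusters left out kept the 12 counts of higher calls within 1.5 times of their main value. In these settings, and in each library read alone with the same clusters, the 102 values of leading clusters stayed above the other clusters. The leading cluster was picked as the highest, anew for each clustering, so these counts and values could hardly have come out otherwise. They do not show that the same cells led. Lower calls at Days 2 and 7 rested largely on the fit without small clusters. A repeat of the clustering under other computing settings, which was not kept, divided the tenocyte-like and bone-matrix-like cells of Day 10 otherwise, so cluster numbers, levels within clusters and calls near the threshold in the classes hold for the clusters drawn here.

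The letters A and B did not pair the libraries, since the deviations of the same letter from the day means had correlations of -0.0265, -0.0900 and -0.0785 over 8031 genes. A fit with the replicate block called 6, 9 and 9 genes in whole cultures, 7, 8 and 8 in chondrocyte-like cells and 6 in tenocyte-like cells, the same numbers as without it, and 6 for the difference between classes, where *Rspo2* was added. Depth limits *Rspo1*, *Rspo4* and *Lgr6* most, which had 26 to 371 UMIs in a library.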

Other observations

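Genes whose levels most resembled those of a member were sought over 92 cluster and library sums of at least 50 cells, among 8247 genes with a mean of at least 10 CPM, by Pearson's r of log2(CPM + 1). The sums share libraries, days and depth, so the values are descriptions. *Rspo2* was most like *Parp3* (r = 0.84), *Fbln5*, a gene of elastic fibre assembly (0.83), and *Ltbp2* (0.82). *Rspo3* was most like *Ccdc80* (0.76), *Mfge8* (0.75) and *Prnp* (0.71), and *Rspo1* like *Col18a1* (0.62), *Igfbp6* (0.52) and *Trap1* (0.51). Of the receptors, *Lgr4* was most like *Slc7a6* (0.78), *Creb3l2* (0.75) and *Golim4* (0.75), and *Lgr5* like *Rbms3* (0.76), *Sertad4* (0.74) and *Foxn3* (0.73). *Axin2* was most like *Rnf214* (0.86), *Tut4* (0.85) and *Zranb2* (0.85), and *Lef1* like *C530008M17Rik* (0.83), *Prpf4b* (0.79) and *Safb* (0.78). *Tcf7* was most like *Ifitm5* (0.75), *Irx5* (0.67) and *Tmem119* (0.64), of which the first and the last are genes of bone-forming cells. *Rspo4* and *Lgr6* did not reach 10 CPM in any cluster and were not compared. Of the 28 pairs among 8 genes of the axis, those with an r over 0.4 in size over the same sums were *Axin2* and *Lef1* (0.67), *Rspo2* and *Lgr5* (0.47), *Rspo2* and *Rspo3* (0.43), *Rspo2* and *Lef1* (-0.44), *Rspo2* and *Axin2* (-0.52) and *Rspo3* and *Axin2* (-0.52).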
